A study of Bos taurus with 39 samples.

Results

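The cows compared here are those whose column in the deposited table carries a month tag ending in 20. They are 22 of the 39 Holstein cows of the series, 9 labelled LOW RFI and 13 labelled HIGH RFI, while the remaining 17 columns have tags ending in 19 and hold 13 LOW RFI and 4 HIGH RFI cows. RFI is read here as residual feed intake, which is what a cow eats above the amount predicted from her size and output; a cow with a low value is the more efficient one. Each cow gave 1 bulk RNA library of the somatic cells in her milk, drawn from the udder through a cannula. The groups share breed and tissue. The sources used here do not give age, parity or stage of lactation, nor what event the month tag dates. Names such as LOW RFI 20 number the cows of a group in label order.

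Milk somatic cells are a mixture. Secretory epithelial cells of the mammary gland carry abundant casein and whey protein transcripts, whereas neutrophils, macrophages and lymphocytes patrol the gland and increase in milk when it is inflamed. A bulk library adds these cells together, so that fewer cells of a type and less RNA per cell cannot be told apart. The series relates the transcriptome of these cells to feed efficiency and immunity.

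The month tags were spread unevenly over the groups. January held 2 LOW RFI and 2 HIGH RFI cows, and June held 6 LOW RFI and 3 HIGH RFI cows. All 6 February cows and both May cows were HIGH RFI, and the single March cow was LOW RFI. In February, March and May the month and the group therefore cannot be told apart, and counts of genes and list medians are given with and without the February cows and with the month tag as a term of the fit.

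Mapped reads, recovered from the RPKM values, ranged from 41637742 (LOW RFI 14) to 197334379 (LOW RFI 19), and the group means differed by less than the spread between cows (two-sided exact permutation p = 0.754). Features at 1 RPKM or more numbered 7899 to 10723 in LOW RFI and 6620 to 11142 in HIGH RFI cows (exact permutation p = 0.442). The June libraries HIGH RFI 17 and LOW RFI 20 stood apart: their median correlation with the other 21 cows was 0.752 and 0.749, and no other cow was under 0.824. Counts of genes are given with and without that pair. Each list of cell markers had detected members. PTPRC, the pan-leukocyte antigen CD45, had a median of 30.9 RPKM in LOW RFI and 57.1 in HIGH RFI cows. EPCAM, an epithelial adhesion molecule, had medians of 27.8 and 27.1. No marker of any list was at 0 in all 22 cows, but 6 of 8 erythrocyte and 4 of 7 basal epithelium markers never reached 1 RPKM.

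Milk protein transcripts took a widely varying share of the libraries. The 7 genes of the milk protein list took between 1.09% and 68.7% of all RPKM in the LOW RFI cows, with a median of 40.9%. In the HIGH RFI cows the share lay between 0.103% and 80.1%, with a median of 14.6%. The groups overlapped over nearly their whole range. The 9 LOW RFI cows averaged 33.5% ± 28.5 (SD, n = 9). The HIGH RFI average was 20.8% ± 22.0 (SD, n = 13). The difference of 12.6 percentage points (SE 11.3) did not exceed that spread (two-sided exact permutation p = 0.252).

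The 6 February cows, all HIGH RFI, had shares of 0.103% to 21.2%, with a median of 7.19%. Without them the difference between the groups was 2.63 percentage points (exact permutation p = 0.847). Among the June cows the order was the opposite, with a mean of 28.8% in 6 LOW RFI and 41.1% in 3 HIGH RFI cows, a difference of -12.2 points (exact permutation p = 0.595). In January the LOW RFI shares were 7.57% and 52.2% and the HIGH RFI shares 30.5% and 47.2%, a design of 2 against 2 in which no p under 0.333 is possible. Without HIGH RFI 17 and LOW RFI 20 the difference was 13.4 points (exact permutation p = 0.159).

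**Figure D1:**
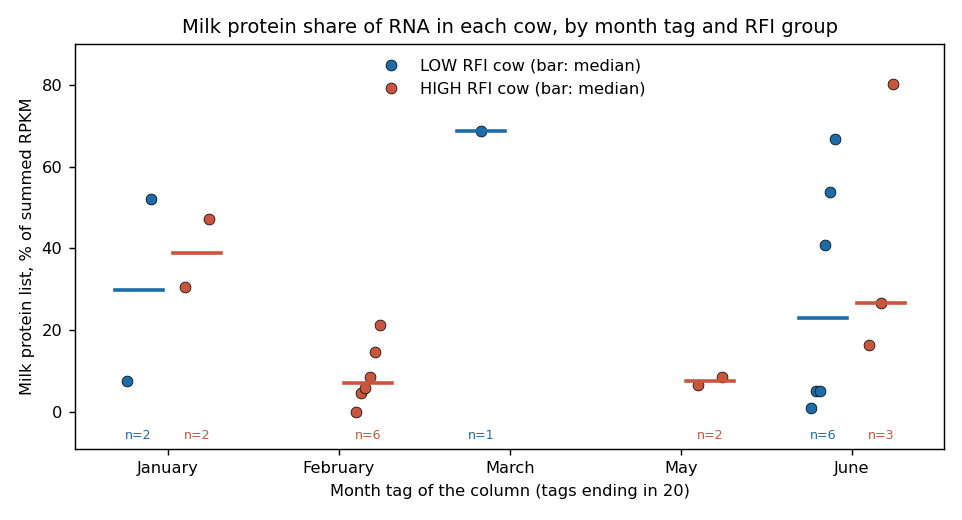
Percentage of summed RPKM in the 7 milk protein genes (vertical axis) for each of the 22 cows, by month tag (horizontal axis) and RFI group; points are cows and bars are medians. The 6 February cows, all HIGH RFI, lie between 0.103% and 21.2%, whereas both groups span most of the range in June.

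Milk protein transcripts also marked the main axis of variation among the cows. The first principal component of log2(RPKM + 1) over the tested genes held 61.6% of the variance and ran from caseins at one end to CCL2, a monocyte chemokine, APOE, an apolipoprotein abundant in macrophages, and CCR1, a chemokine receptor, at the other. The second, with 12.8%, had PTX3, CXCR1 and CSF3R, genes typical of neutrophils, at 1 end. The third, with 7.10%, had the ribosomal protein gene RPL12 at one end and CD69, an activation marker of lymphocytes, at the other. Group means on the 3 components did not differ beyond the spread between cows (two-sided exact permutation p = 0.272, 0.755 and 0.312).

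**Figure D2:**
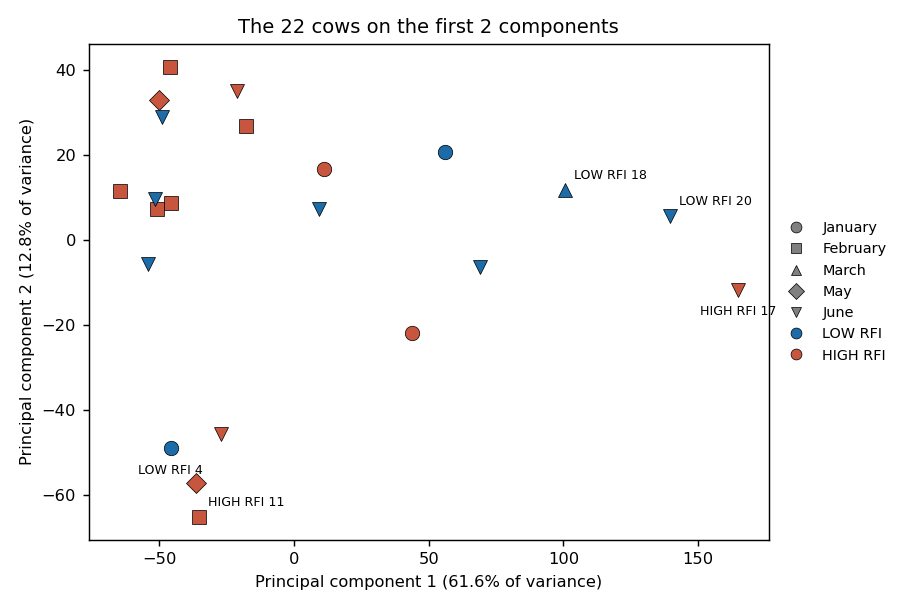
Scores of the 22 cows on the first 2 principal components (axes in component units, with the share of variance); colour is the RFI group and shape the month tag. LOW RFI and HIGH RFI cows are intermixed, all 6 February cows lie below 0 on component 1 among cows of both groups from other months, and HIGH RFI 17 and LOW RFI 20 lie farthest along it.

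No gene differed between the groups once adjusted over the whole transcriptome. Of 10652 genes at 1 RPKM or more in at least 9 cows, 0 passed a Benjamini-Hochberg adjusted p of 0.05 in limma-trend, a moderated linear model fitted to log2(RPKM + 1), with none below 0.840. Without adjustment, 86 genes (0.807% of those tested) had p under 0.05: 79 (0.742%) were lower and 7 (0.0657%) higher in LOW RFI. Limma-voom on the recovered reads gave 0 and 14 genes at these thresholds. No gene had all 9 LOW RFI cows above or all 9 below the 13 HIGH RFI cows (0 of 10652 in each direction). The median 95% interval of a gene, without adjustment, reached 0.59 to either side of its log2 difference. Smaller differences could therefore not be resolved for a typical gene even without adjustment. At the adjusted threshold larger ones were not resolved either, such as -1.21 for GPX3, described below.

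The direction in which genes lay differed between sets of months and between scalings. Of the tested genes, 81.7% had a negative log2 difference (LOW RFI minus HIGH RFI), with a median of -0.20. The median was 0.0065 without the February cows and 0.31 in the June cows. The 3 HIGH RFI cows of June include HIGH RFI 17, so that month and cow cannot be told apart there. With the month tag as a term the median was 0.23, and in the January and June cows alone also 0.23. Both of these settings draw the group difference from the same cows, HIGH RFI 17 among them. Under quantile normalization, which gives every library the same distribution of values and so holds the median near 0, the median was 0.012. Of the 201 genes then below an unadjusted p of 0.05 (1.89% of those tested), 72.6% were higher in LOW RFI, against 8.14% on the values as deposited. Rescaled without the milk protein list, 75.4% of 138 such genes were higher. The number of such genes was 3 (0.0282%) without the February cows, of which 1 was higher in LOW RFI. It was 4 (0.0376%) with the month tag as a term, all 4 higher, and 23 (0.216%) in the June cows, of which 21 were higher. Leaving out HIGH RFI 17, the library richest in milk protein transcripts, moved the count at an unadjusted p from 86 to 1231, and leaving out LOW RFI 20 moved it to 26, with 0 genes at the adjusted threshold in either. With both left out there were 412.

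Fits that weight libraries by their quality gave another count. With limma's array weights 6309 genes passed the adjusted threshold, and with voom quality weights 4123. The array weights ran from 0.0954 for HIGH RFI 17 to 23.7 for LOW RFI 22, a single LOW RFI cow of June. Without the 6 February cows both weighted fits passed 0 genes. Without LOW RFI 22 the voom fit passed 0, while array weights passed 8503, with LOW RFI 14 then weighted highest at 7.28. Restricted to January and June, the months that hold both groups, array weights passed 0 genes.

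**Figure D3:**
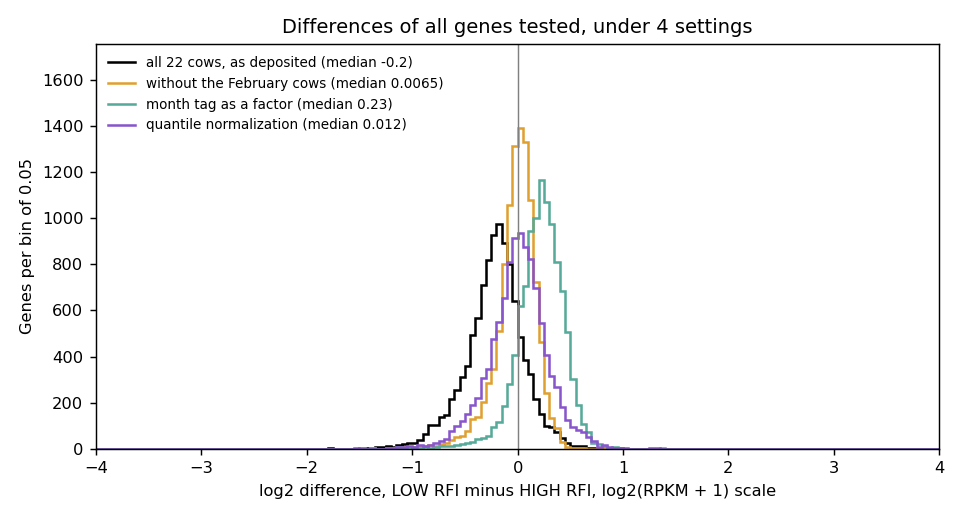
Number of genes (vertical axis) per bin of the log2 difference between LOW RFI and HIGH RFI cows (horizontal axis, log2(RPKM + 1) scale) for 10652 genes under 4 settings. The bulk of the genes lies below 0 on the values as deposited (median -0.20) and close to 0 without the February cows. With the month tag as a term it lies above 0 (median 0.23). Quantile normalization, which gives every library the same distribution of values, holds it close to 0 by its method.

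The 10 genes of smallest unadjusted p in each direction are described next; none passed the adjusted threshold, where each had an adjusted p of 0.840. Values are RPKM, and differences are on the log2(RPKM + 1) scale, which understates the change of genes near or below 1 RPKM.

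Among the genes lower in LOW RFI, GPX3 encodes the secreted glutathione peroxidase, a selenoprotein that removes peroxides outside the cell. Its level was 1.35 to 23.2 RPKM in the LOW RFI cows, with a median of 6.81, and 1.21 to 46.3 in the HIGH RFI cows, with a median of 18.7. The ranges overlapped, yet only 1 of 9 LOW RFI cows exceeded the HIGH RFI median. The log2 difference was -1.21 (SE 0.455, limma-trend unadjusted p = 0.0134). In June GPX3 stood at 1.35 to 10.1 RPKM in the LOW RFI cows, with a median of 5.94, and at 1.21, 18.7 and 20.5 in the 3 HIGH RFI cows, with HIGH RFI 17 the lowest of all 22. In January, HIGH RFI held 4.68 and 13.7 and LOW RFI 4.46 and 23.2. With the month tag as a term the log2 difference was -0.37 (SE 0.581), and without the February cows -0.89.

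SMPDL3A, an acid sphingomyelinase-like phosphodiesterase, had a LOW RFI range of 0.903 to 7.58 RPKM with a median of 3.07. In HIGH RFI it ranged from 0.514 to 22.7 with a median of 7.57, and 8 of 9 LOW RFI cows were below that median. The log2 difference of -1.03 (SE 0.390) became -0.24 with the month tag as a term. Without the February cows it was -0.69. LY75, the endocytic receptor DEC-205 of dendritic cells, kept within 0.337 to 2.73 RPKM in LOW RFI cows and spread from 0.0625 to 11.7 in HIGH RFI cows, with medians of 1.72 and 3.65. No LOW RFI cow reached the HIGH RFI median of LY75. Its 6 February cows held 3.16 to 11.7 RPKM, above every LOW RFI cow, and the log2 difference of -0.97 (SE 0.373) was -0.40 without them and -0.20 with the month tag as a term. In January LY75 was at 0.960 and 1.66 RPKM in HIGH RFI and at 1.65 and 1.73 in LOW RFI cows.

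GPR65, a proton-sensing receptor of immune cells, had a median of 1.48 RPKM in LOW RFI and 3.73 in HIGH RFI cows. The log2 difference was -0.87 over the 22 cows and -0.10 with the month tag as a term. Without the February cows GPR65 was at -0.59. REV3L, the catalytic subunit of the translesion DNA polymerase zeta, was low in both groups, at 0.342 to 1.41 RPKM in LOW RFI and 0.0772 to 4.68 in HIGH RFI cows. All 9 LOW RFI cows were below its HIGH RFI median of 1.96, although the 2 January HIGH RFI cows, at 0.297 and 0.449, were lower than the 2 January LOW RFI cows, at 0.633 and 0.692. CEP350, a large centrosomal protein, and YOD1, a deubiquitinase, had the same layout, with all 9 LOW RFI cows below HIGH RFI medians of 3.32 and 1.68 RPKM and log2 differences of -0.79 and -0.58. REV3L, CEP350 and YOD1 were at -0.22, -0.21 and -0.14 once the month tag was a term. CERS6, a ceramide synthase, had medians of 0.430 and 1.35 RPKM (log2 difference -0.49). The list ends with gene:ENSBTAG00000038112, at medians of 1.52 and 5.99 RPKM, and gene:ENSBTAG00000053445, at 0.542 and 1.39, for which no symbol is used here. In LY75, REV3L and CEP350 array weights on the January and June cows turned the sign.

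All 10 of these genes were also negative with the month tag as a term, without the February cows and in the June cows alone, where 0 of 10 had an unadjusted p under 0.05. The settings share cows and the genes were chosen on them, so the shared sign is a description.

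Among the genes higher in LOW RFI, NOXA1 encodes the activator subunit of the NADPH oxidase NOX1. It was measured at 0.978 to 2.12 RPKM in LOW RFI cows, with a median of 1.58, and at 0.203 to 2.03 in HIGH RFI cows, with a median of 0.846. All 9 LOW RFI cows were above the HIGH RFI median and the ranges overlapped. The log2 difference was 0.37 (SE 0.154, limma-trend unadjusted p = 0.0230), 0.28 with the month tag as a term and 0.26 without the February cows. Both January HIGH RFI cows, at 1.67 and 2.03 RPKM, lay within the LOW RFI range.

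SCRN2, a member of the secernin family, ranged from 3.34 to 7.12 RPKM in LOW RFI cows, with a median of 4.80, and from 1.64 to 5.70 in HIGH RFI cows, with a median of 3.79. Its log2 difference of 0.43 (SE 0.178) was 0.49 with the month tag as a term, 0.44 without the February cows and 0.80 in June. IQANK1, named for its IQ motif and ankyrin repeats, had medians of 2.42 and 1.23 RPKM, all 9 LOW RFI cows above the HIGH RFI median, and a log2 difference of 0.47 (SE 0.198), which was 0.46 with the month tag as a term. ECHDC3, a relative of enoyl-CoA hydratases, had medians of 2.20 and 1.79 RPKM (log2 difference 0.31).

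In June, 4 of the 10 genes higher in LOW RFI had all 6 LOW RFI cows above all 3 HIGH RFI cows: NOXA1, SCRN2, IQANK1 and ECHDC3. SCRN2 stood at 4.60 to 7.12 against 2.65 to 3.13 RPKM, IQANK1 at 1.69 to 4.22 against 1.05 to 1.18, and NOXA1 at 1.23 to 2.12 against 0.581 to 0.983. That layout was found in 87 genes, 0.817% of those tested, and the opposite one in 1 gene (0.00939%). The June cows are among those that chose the 10 genes, so nothing is read from the count. In January the groups overlapped for SCRN2, IQANK1 and NOXA1, with 3.97 and 5.70 RPKM in HIGH RFI against 4.15 and 4.45 in LOW RFI for SCRN2.

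Of the other genes of this direction, KLK1, tissue kallikrein, had medians of 1.29 and 0.836 RPKM, and SPRY1, an inhibitor of receptor tyrosine kinase signalling, 2.47 and 1.94. ZKSCAN5, a zinc finger transcription factor, had medians of 2.51 and 1.96. CALB1, a calcium-binding protein, ranged from 0.0173 to 21.7 RPKM in LOW RFI and from 0.00621 to 6.77 in HIGH RFI cows. Its log2 difference of 0.99 (SE 0.485) was -0.054 in June alone and 0.47 with the month tag as a term. Leaving out LOW RFI 14, the cow at 21.7 RPKM, gave CALB1 an unadjusted p of 0.151. The rows gene:ENSBTAG00000015651 and gene:ENSBTAG00000007966 had medians of 1.18 and 1.04 RPKM in LOW RFI against 0.898 and 0.748 in HIGH RFI. Across the 20 genes a median of 72.0 to 1997 reads lay behind a cow's value. The cow with the fewest reads had 1 for CALB1, 4 for GPR65 and 7 for YOD1, but 228 for ZKSCAN5.

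**Figure D4:**
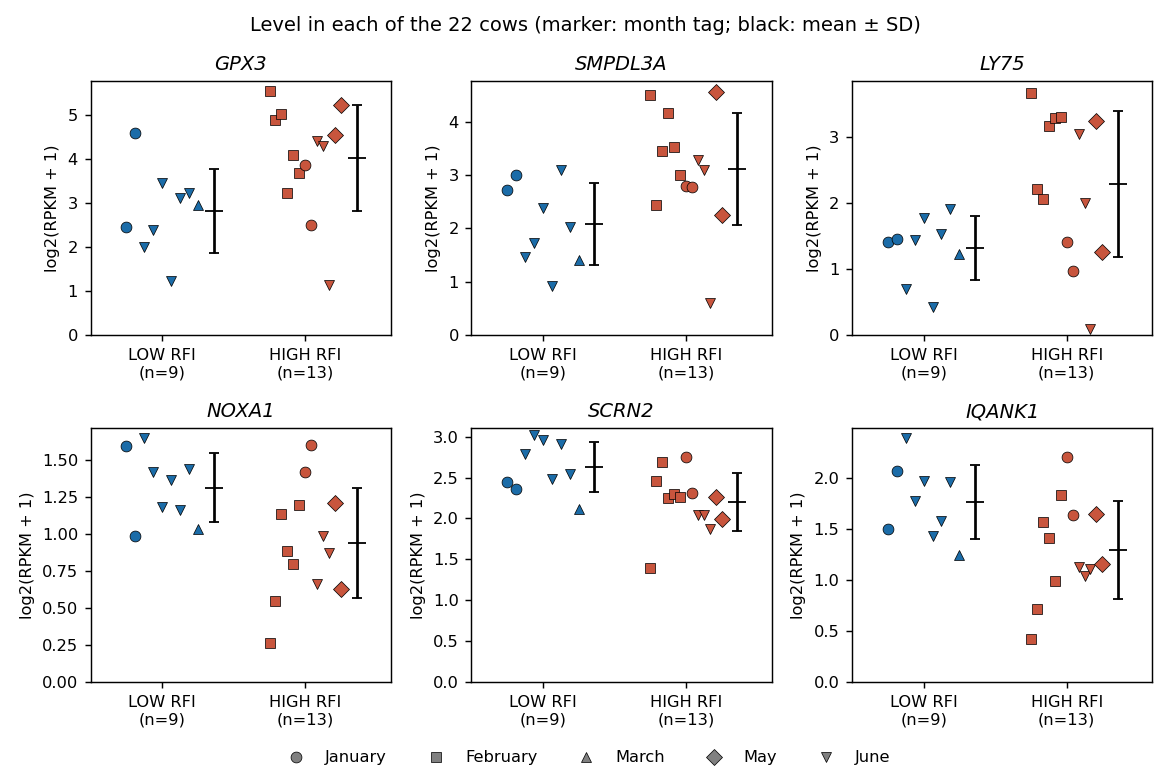
Level of 6 genes, as log2(RPKM + 1), in each cow; colour is the RFI group, shape the month tag, and the black mark is the mean ± SD of 9 LOW RFI or 13 HIGH RFI cows. GPX3, SMPDL3A and LY75 are lower and NOXA1, SCRN2 and IQANK1 higher on average in LOW RFI, and in every panel the groups overlap.

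Gene lists chosen for this tissue are described by their counts and medians, beside the median of -0.20 over all tested genes; a relative median is the list median minus that value. Of 476 distinct list members tested, 10 had an unadjusted p under 0.05 (2.10%, against 0.807% of all genes) and 0 passed the adjusted threshold. They were GPX3, GNLY, CR2, IFIT1, IFIH1, CLEC7A, PIK3CA, RICTOR and ATF3, lower in LOW RFI, and NOXA1, higher.

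Of the lists of milk synthesis, milk protein and milk fat globule genes lay on the positive side over all 22 cows. All 7 milk protein genes had positive log2 differences, with a list median of 0.75. CSN2, beta-casein, ranged from 1330 to 157652 RPKM in LOW RFI cows, with a median of 68939, and from 154 to 174380 in HIGH RFI cows, with a median of 24598. Its log2 difference was 0.74 (SE 0.981). The other genes among the 5 most abundant, PAEP (beta-lactoglobulin), CSN1S1, CSN3 and CSN1S2 (caseins), had log2 differences of 0.86, 0.81, 0.68 and 0.99, each with an SE above 0.9. The list median turned to -0.34 without the February cows, with all 7 genes negative, and to -1.24 with the month tag as a term. Leaving out 1 cow moved it to 0.24 (HIGH RFI 12), 0.46 (LOW RFI 20), 0.50 (LOW RFI 18 or LOW RFI 16) or 1.30 (LOW RFI 17), and CSN2 was at 0.17 without HIGH RFI 12. Of 7 milk protein genes, 6 were positive under quantile normalization.

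The milk fat globule list, with XDH and BTN1A1, which coat the secreted droplet, and FABP3, a fatty acid carrier, had 10 of 10 tested genes positive, with a median of 0.48, which was 0.06 without the February cows and -0.64 with the month tag as a term. It lay between 0.24 (without HIGH RFI 12) and 0.76 (without LOW RFI 17) when 1 cow was left out. FABP3 had medians of 1258 RPKM in LOW RFI and 522 in HIGH RFI cows. Fatty acid and triglyceride synthesis had 11 of 17 genes positive (median 0.05), with FASN, fatty acid synthase, at medians of 426 and 112 RPKM and a log2 difference of 0.59 (SE 0.648). Cholesterol synthesis was split, 9 positive and 11 negative, with a median of -0.04, and FDFT1, squalene synthase, had a log2 difference of 0.01. Lactose and glucose genes had 8 of 10 negative (median -0.26), while B4GALT1, the galactosyltransferase of lactose synthase, was at 0.17. Without the February cows the fatty acid, cholesterol and lactose medians were 0.10, 0.09 and -0.10, and with the month tag as a term -0.06, 0.23 and 0.19. None of these 4 lists had a member at an unadjusted p under 0.05.

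Epithelial markers were divided between the directions. The mammary epithelium list had 8 positive and 11 negative genes, with a median of -0.04, and ranged from -0.71 for S100A14 to 0.60 for ELF5, a transcription factor of the secretory lineage. KRT19, a luminal keratin, had medians of 545 and 382 RPKM. Of the basal epithelium list only KRT5 and KRT17 were abundant enough to test, both at -0.37. Their median was 0.10 without the February cows and 0.71 with the month tag as a term. Under quantile normalization the medians of the cholesterol synthesis and mammary epithelium lists turned positive, at 0.20 and 0.19. The mammary epithelium median was -0.09 without the February cows and 0.16 with the month tag as a term.

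Immune cell genes lay on the negative side over all 22 cows. The neutrophil list had 16 of 17 genes negative and the lowest median of the 27 lists, -1.11, or -0.91 relative to all genes. CXCR1, the interleukin-8 receptor of neutrophils, ranged from 1.37 to 513 RPKM in LOW RFI cows, with a median of 7.94, and from 2.22 to 951 in HIGH RFI cows, with a median of 42.3. Its log2 difference was -2.01 (SE 1.01, limma-trend unadjusted p = 0.0583). S100A12, a calcium-binding alarmin of neutrophils, had medians of 233 and 542 RPKM. The neutrophil median was -0.68 without the February cows, -0.18 in June and 0.05 with the month tag as a term. Relative to the median of all genes in the same fit, these values were -0.69, -0.49 and -0.18.

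The macrophage and monocyte list had 18 of 19 genes negative, with a median of -0.50. CTSB, a lysosomal protease, had medians of 3375 and 3755 RPKM and a log2 difference of -0.71 (SE 0.739). The list was at -0.06 without the February cows and at 0.56 with the month tag as a term, with 18 of 19 genes positive. With that term 9246 of all 10652 tested genes were positive. Leaving out 1 cow moved it to -0.88 (HIGH RFI 17), -0.82 (LOW RFI 17), -0.78 (LOW RFI 19), -0.27 (LOW RFI 18) or -0.081 (LOW RFI 20). All 20 T cell genes were negative (median -0.64). CD3E, a chain of the T cell receptor complex, had medians of 19.5 and 34.1 RPKM, and 8 of 9 LOW RFI cows were below the HIGH RFI median. In the June cows the T cell median was 0.71, and it was -0.24 without the February cows and 0.18 with the month tag as a term. All 7 NK and cytotoxic genes were negative (median -0.83). GNLY, a cytolytic granule protein, had medians of 0.559 and 2.32 RPKM and CCL5, a chemokine of cytotoxic cells, 17.4 and 83.9. All 6 B and plasma cell genes were negative (median -0.35), with CR2, the complement receptor of B cells, at medians of 0.991 and 1.89 RPKM. The B cell median was -0.02 without the February cows and 0.25 with the month tag as a term. HBA, the only testable erythrocyte marker and one of several near-identical globin genes, had medians of 3.68 and 5.11 RPKM.

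The summed level of each marker list overlapped widely between the groups. Neutrophil markers summed to 45.9 to 4444 RPKM in LOW RFI and 36.6 to 4434 in HIGH RFI cows, and T cell markers to 42.9 to 750 and 16.6 to 965. Macrophage and monocyte markers summed to 225 to 27145 and 282 to 22359 RPKM. With the milk protein and neutrophil scores of each cow as covariates, 0 genes passed the adjusted threshold in limma-trend and 108 had an unadjusted p under 0.05 (1.01%), 100 of them higher and 8 lower in LOW RFI. The median over all genes was then -0.0015, and 15 of the 25 list medians besides those of the 2 scores were below 0. In that fit the interferon median was -0.01 against -0.64 without covariates, the inflammatory median 0.15 against -0.84 and the macrophage median 0.18 against -0.50. The T cell median was -0.38 against -0.64.

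**Figure D5:**
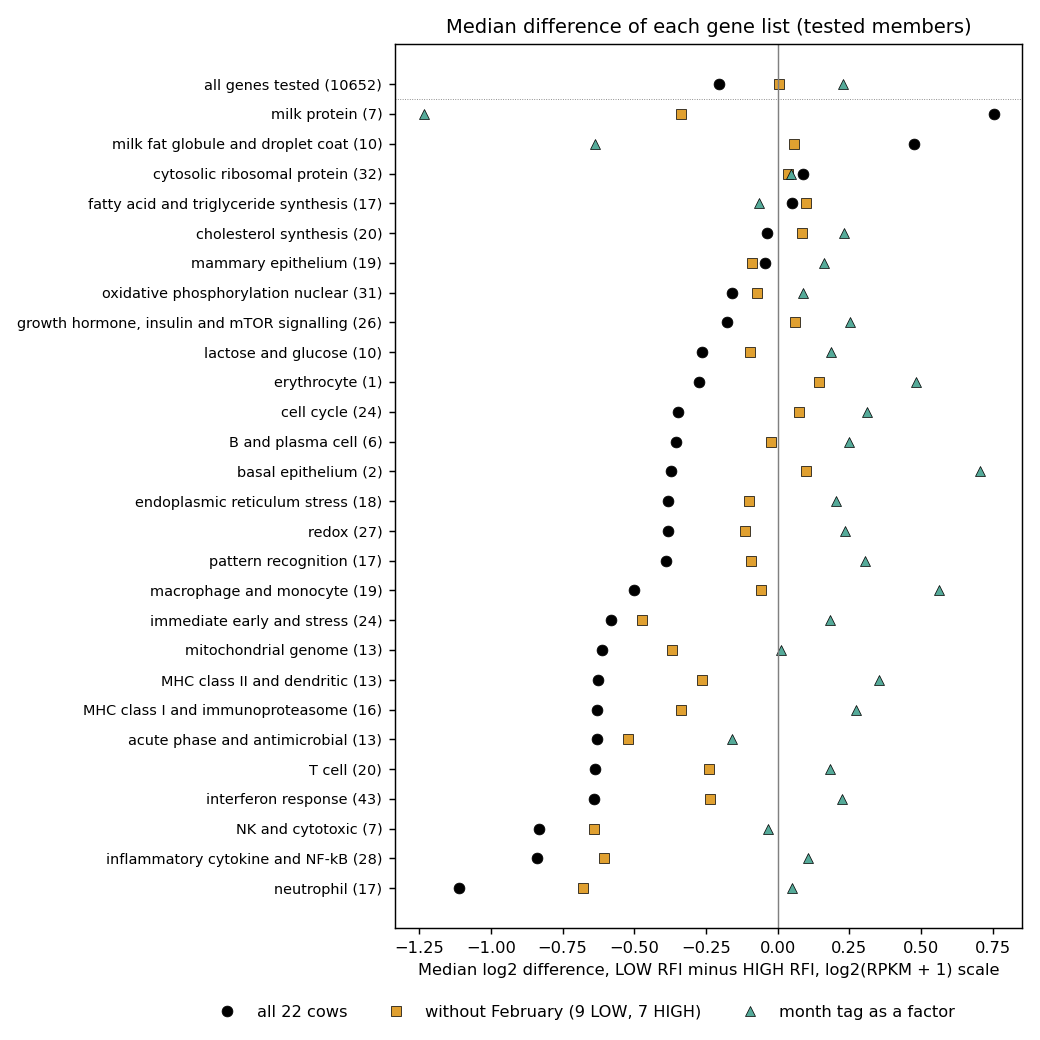
Median log2 difference (horizontal axis, LOW RFI minus HIGH RFI) of the tested members of each gene list, with the number of members in brackets, over all 22 cows, without the 6 February cows and with the month tag as a term; the top line is all tested genes. The immune lists lie well below 0 over all cows, closer to 0 without February and mostly above 0 with the month tag, while the milk protein list moves from 0.75 to -0.34 and -1.24. The median of all tested genes moves from -0.20 to 0.0065 and 0.23.

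Antigen presentation and interferon genes were on the negative side as well. All 13 MHC class II and dendritic genes and all 16 MHC class I and immunoproteasome genes had negative log2 differences, with medians of -0.63 in each. Without the February cows 13 of 13 class II and 14 of 16 class I genes were negative (medians -0.27 and -0.34). With the month tag as a term 11 of 13 and 16 of 16 were positive (medians 0.35 and 0.27), as were 9246 of all 10652 tested genes. The class II median lay between -1.02 (without HIGH RFI 17) and -0.34 (without LOW RFI 20) when 1 cow was left out. CD74, the invariant chain, had medians of 860 and 938 RPKM, and B2M, the light chain of MHC class I, 868 and 1613. JSP.1, an MHC class I heavy chain, had medians of 637 and 1613 RPKM. MHC heavy chains are a family of near-identical genes, and the sources used here do not say how reads were shared among them. All 43 tested interferon response genes were negative, with a median of -0.64. ISG15, a ubiquitin-like modifier, had medians of 49.2 and 98.4 RPKM. IFIT1, a sensor of foreign RNA, ranged from 0.689 to 25.3 RPKM in LOW RFI and from 0.192 to 171 in HIGH RFI cows, and its log2 difference of -1.39 was -0.70 without the February cows and -0.02 with the month tag as a term. The interferon list was at -0.24 without the February cows, with 39 of 43 genes negative, against 48.3% of all tested genes. With the month tag as a term it was at 0.22, with 37 of 43 positive, close to the median of 0.23 over all tested genes.

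Of the inflammatory cytokine and NF-kB list, 27 of 28 genes were negative (median -0.84), from -1.49 for the cytokine OSM to 0.29 for the chemokine CXCL3. NFKBIA, the inhibitor of NF-kB, had medians of 182 and 213 RPKM, with HIGH RFI 11 at 2644. The list was at -0.60 without the February cows and, with 18 of 28 genes positive, at 0.11 with the month tag as a term. With that term 9246 of all 10652 tested genes were positive, with a median of 0.23. The acute phase and antimicrobial list had 11 of 13 negative (median -0.63), with HP, haptoglobin, at medians of 5.84 and 31.0 RPKM, LYZ, lysozyme, at 29.7 and 129, and LPO, lactoperoxidase, on the other side at 42.1 and 25.2. Pattern recognition had 16 of 17 negative (median -0.39), with CLEC7A, a receptor of fungal glucan, at medians of 2.85 and 5.43 RPKM and the adaptor MYD88 at 40.5 and 54.0; its median was -0.09 without the February cows and 0.30 with the month tag as a term. By the median itself, only the acute phase and antimicrobial list and the NK and cytotoxic list were negative in all 3 of these sets among the immune lists. The acute phase median was -0.52 without the February cows and -0.16 with the month tag as a term, and the NK median -0.64 and -0.03. Relative to the median of all genes in the same fit, the neutrophil, T cell, inflammatory and interferon lists were negative in all 3 sets too. With the month tag as a term these relative medians were -0.18, -0.05, -0.12 and -0.0038.

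Metabolic and growth lists are read against the 81.7% of all tested genes that were negative. The redox list had 24 of 27 genes negative (median -0.38), with GPX1, the cytosolic glutathione peroxidase, at medians of 365 and 542 RPKM. The growth hormone, insulin and mTOR list had 21 of 26 negative and a median of -0.18 (relative median 0.025). In it PIK3CA, a catalytic subunit of PI3-kinase, and RICTOR, the scaffold of mTOR complex 2, had all 9 LOW RFI cows below the HIGH RFI medians of 3.25 and 1.67 RPKM. Their log2 differences of -0.62 and -0.60 were -0.09 and -0.13 with the month tag as a term. In January PIK3CA was at 0.369 and 0.828 RPKM in HIGH RFI against 1.35 and 1.69 in LOW RFI cows. RICTOR was then at 0.274 and 0.400 against 0.626 and 1.02. EIF4EBP1, a translation repressor under mTOR, was at 145 RPKM in LOW RFI and 121 in HIGH RFI cows by median. All 13 mitochondrial genome genes were negative (median -0.61), led in abundance by COX1, a subunit of cytochrome oxidase, at medians of 1569 and 2700 RPKM. Nuclear oxidative phosphorylation genes had 24 of 31 negative with a median of -0.16 (relative median 0.045), and COX4I1 was at medians of 288 and 413 RPKM. Under quantile normalization the medians of the growth hormone and of the nuclear oxidative phosphorylation list were 0.04 and 0.08. Without the February cows the redox, growth hormone, mitochondrial genome and nuclear oxidative phosphorylation medians were -0.11, 0.06, -0.37 and -0.07. With the month tag as a term they were 0.23, 0.25, 0.01 and 0.09.

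Cytosolic ribosomal protein genes had 29 of 32 positive, with a median of 0.09, and RPLP1 had medians of 3890 and 4052 RPKM. The list was at 0.04 without the February cows and at 0.05 with the month tag as a term. RPL12 differed from the rest of the list by being either near 0 or abundant: 6 of 9 LOW RFI and 4 of 13 HIGH RFI cows were at 301 RPKM or more, and all other cows were at 0.760 RPKM or less. Its log2 difference of 2.96 (SE 1.68) had a limma-trend unadjusted p of 0.0914. Ribosomal protein genes have many processed copies, and how reads were shared with them is not given, so the RPL12 values are uncertain. All 18 endoplasmic reticulum stress genes (median -0.38), all 24 cell cycle genes (median -0.35) and all 24 immediate early and stress genes (median -0.58) were negative. Without the February cows 13 of 18, 6 of 24 and 22 of 24 were negative (medians -0.10, 0.07 and -0.47). With the month tag as a term 1 of 18, 1 of 24 and 8 of 24 were (medians 0.20, 0.31 and 0.18), against 13.2% of all tested genes. ATF4, a stress transcription factor, had medians of 331 and 424 RPKM, MCM7, a replication helicase subunit, 14.1 and 21.3, and HSPA1A, a heat shock protein, 193 and 242. ATF3, a stress-induced transcription factor, ranged from 22.7 to 124 RPKM in LOW RFI and from 24.9 to 255 in HIGH RFI cows, with medians of 68.6 and 97.3. Its log2 difference was -0.82 (SE 0.361, limma-trend unadjusted p = 0.0314), -0.73 without the February cows and -0.37 with the month tag as a term.

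Of the 27 list medians, 23 were below 0 over all 22 cows, 19 without the February cows and 19 under quantile normalization. With the month tag as a term 5 were below 0, and in the June cows alone 6. Leaving out 1 cow moved 21 of the 27 medians by over 1.5 times and changed the sign of 4, those of the fatty acid, cholesterol, mammary epithelium and ribosomal protein lists. The other 6, which were neutrophil, T cell, NK, interferon, inflammatory and MHC class I, stayed within 1.5 times. LOW RFI 20 was 1 of the cows with such an effect: without it the acute phase median was -0.29, the mitochondrial genome median -0.38, the pattern recognition median -0.22, the redox median -0.19, the endoplasmic reticulum stress median -0.15 and the cell cycle median -0.20.

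The contrast was set against that of the 17 cows with tags ending in 19 by the interaction of tag year and RFI group over all 39 cows. Of the 10652 genes, 0 passed the adjusted threshold in limma-trend and 9 had an unadjusted p under 0.05 (0.0845%). The smallest was that of CEP95, a centrosomal protein, with a log2 difference of 0.30 in the 22 cows and -0.46 in the 17 earlier cows (interaction 0.76, SE 0.293, limma-trend unadjusted p = 0.0136). CEP95 ranged from 2.05 to 5.17 RPKM in LOW RFI and from 1.24 to 3.71 in HIGH RFI cows of the 22. The next were gene:ENSBTAG00000007966, at 0.32 and -0.23, and gene:ENSBTAG00000038112, at -1.08 and 0.68. In the same fit of all 39 cows, the contrast within the earlier cows had 0 genes past the adjusted threshold. There 234 genes had an unadjusted p under 0.05 (2.2%), with a median log2 difference of -0.27, and the HIGH RFI group holds 4 cows. The contrast within the 22 cows had 219 such genes in that fit. Of the 20 genes named above, 9 of the 10 lower ones and 6 of the 10 higher ones had the same sign in the earlier cows. Of all 10652 tested genes, 8858 (83.2%) were negative and 1794 positive in the earlier cows. GPX3 was at -0.88 there (SE 0.515) against -1.21 in the 22 cows, NOXA1 at 0.17 against 0.37, and SCRN2 at 0.02 against 0.43. The milk protein list median was 2.42 in the earlier cows against 0.75, and the interferon median -1.01 against -0.64; these differences between the tag years were not tested as lists.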

How the data were processed

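RNA of milk somatic cells was sequenced with 1 library per cow, from TruSeq RNA libraries per the labels' protocols. The authors deposited 1 table of RPKM values (reads scaled by gene length and library total, per the file headers) for 21661 features in 39 columns, all mapped to a cow (0 columns unused). Per the submitters' processing notes the build was ARS-UCD1.2. The sources used here do not give the aligner, counter, annotation or strand, so antisense or overlapping genes cannot be separated. Of the identifiers, 17331 matched a RefSeq symbol and 4017 were Ensembl-only. Whole reads (tolerance 0.02 reads) and library totals were recovered for the 19616 features above 0, for depth and limma-voom only.

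Genes at 1 RPKM or more in at least 9 of 22 cows were tested on log2(RPKM + 1) with limma 3.58.1 (R 4.3.3; trend, robust), two-sided, with Benjamini-Hochberg adjustment at 0.05, checked on simulated data. Single values per cow were compared by exact permutation over all splits (NumPy 2.4.6). The groups share no animals, and p-values measure the spread between cows. Named genes are the 10 of smallest p per direction (at most 2 Ensembl-only), the most abundant tested member of each list, the 5 most abundant features and the 3 smallest interaction p; all other names were picked with their values in view. The members, the 27 lists and the tests were chosen with earlier results of these data known. Alternatives varied scaling, pseudocount, filter, month, libraries, weights and model; those leaving out HIGH RFI 17 and LOW RFI 20, the January and June set and the weighted subsets were added after seeing the data.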

Additional observations from a re-analysis of the deposited data

Results flagged for a closer look

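In groups of 4 to 10 cows, which here means the 9 LOW RFI cows, 5 of 98 values tested had 1 cow far from the others by Dixon's ratio, the gap to the nearest cow over the group's range (critical value 0.493). That is 5.10%, and chance gives about 5%. LOW RFI 19 had the most mapped reads (ratio 0.609) and the highest level of REV3L (0.531). LOW RFI 4 had the highest ATF4 (0.608). LOW RFI 21 had the highest level of GNLY, 13.2 RPKM against a group median of 0.559 (ratio 0.716), and the lowest level of EPCAM, 3.91 RPKM against 27.8 (0.615).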

How the results depend on the processing

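At the adjusted threshold 0 genes passed in limma-trend under every scaling, filter, pseudocount and set of cows tried, in all 22 fits leaving out 1 cow, at an adjusted p under 0.1, and in voom without weights. The exceptions were 6309 genes with array weights, 6325 with them without HIGH RFI 17 and LOW RFI 20, 8503 without LOW RFI 22, and 4123 with voom quality weights. At an unadjusted p the count of 86 became 201 with quantile normalization, 138 rescaled without the milk protein list, 23 with a pseudocount of 0.1, 291 with no filter, 18 with a filter of 5 RPKM, 219 with all 39 cows in one fit, 4 with the month tag, 3 without February, 23 in June only, 3 in January and June, 13 without the 2 libraries whose column names carry a mark, 412 without HIGH RFI 17 and LOW RFI 20, 108 with milk protein and neutrophil scores as covariates (100 higher, 8 lower), and 14 with voom. Weighted fits gave 6947 (array weights), 2007 without February, 6954 without HIGH RFI 17 and LOW RFI 20, 602 in January and June, 8647 without LOW RFI 22, 5605 (voom quality weights), 811 without February and 1747 without LOW RFI 22. Leaving out 1 cow gave 26 to 1231. The count moved by over 1.5 times without HIGH RFI 10 (154), 11 (38), 13 (41), 15 (131), 17 (1231), 6 (36), 7 (263), 8 (39) or 9 (46), and without LOW RFI 14 (55), 16 (26), 18 (39), 19 (186), 20 (26), 21 (258), 22 (57) or 4 (314). The interaction count of 9 became 35 with quantile normalization. The milk protein difference of 12.6 points became -12.2 in June and -11.1 in January and June, 7.29 without the marked libraries, and 8.25 to 17.6 leaving out 1 cow (exact permutation p 0.0751 to 0.454). Reversed genes were CALB1 in June (-0.054), ZKSCAN5 with array weights without LOW RFI 22 (-0.039), and REV3L (0.000939), LY75 (0.22) and CEP350 (0.083) with array weights in January and June. Of 808 list medians recomputed, 8 moved beyond the spread between cows, 7 of them in June only. The causes were not tested. No paired analysis was possible because replicate numbers only follow label order and pair no animals. The shallowest library held 41637742 mapped reads, and a median of 72.0 reads or more lay behind a cow's value of each of the 20 named genes. Single cows had far fewer, down to 1 read for CALB1.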
